A study of Mus musculus with 15 samples.

Results

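Expression of 10 inhibitory receptor genes (Ctla4, Pdcd1, Lag3, Havcr2, Tigit, Cd160, Btla, Cd200, Cd244 and Cd5) was followed in mouse CD8+ OT-I T cells before and after stimulation. The genes were chosen by symbol, and all 10 are among the 17493 genes of the count tables. OT-I cells carry 1 transgenic T cell receptor for an ovalbumin peptide on MHC class I, here in female mice of the strain C57BL/6-Tg(TcraTcrb)1100Mjb/Crl whose age is not given. Cells came from spleen and lymph nodes, and all 15 libraries were made from viable CD8+ cells sorted as negative for CD103. The 5 groups of 3 libraries were untreated cells at 0 h and cells given either immunofilaments (IF) or dendritic cells (DC), each for 8 h or 22 h. Immunofilaments are synthetic filaments, used at 5 ng/ml, that carried peptide-loaded MHC together with interleukin-2. The DC wells held 20000 Flt3 ligand dendritic cells pulsed with the SIITFEKL peptide, and no interleukin-2 or filament is listed for them. Every stimulated well held 50000 T cells. The DC carry costimulatory ligands of their own, so IF and DC groups differ in more than the antigen carrier. The titles number the libraries of each group after the syllable Don, which is not explained, so p-values measure the spread between these libraries, which may be technical.

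Inhibitory receptors are surface proteins that damp signalling from the T cell receptor or compete for the ligands of costimulatory receptors. Several of them are induced by activation itself, so their presence on a recently stimulated T cell marks stimulation as well as restraint, and their joint presence for a long time is known from exhausted cells. The proteins differ in their partners. CTLA-4 competes with CD28 for CD80 and CD86, PD-1 binds PD-L1 and PD-L2, LAG-3 binds MHC class II, and TIGIT binds the poliovirus receptor. BTLA and CD160 share the ligand HVEM, and 2B4, the product of Cd244, binds CD48. CD200 is the ligand of the CD200 receptor rather than a receptor with an inhibitory tail. CD5 is a scavenger-type receptor that tunes T cell receptor signalling and is present on resting T cells.

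Total counts per library ran from 2892874 to 19806730. All 10 CD8 T cell markers, among them Cd3e, Cd8a and Cd8b1, had counts in every group. Dendritic cell markers were not absent: the 18 listed summed to 704.7 to 1572 CPM (counts relative to the scaled library total) in unstimulated cells, 240.3 to 482 with IF and 940 to 1302 with DC at 8 h, and 393 to 643 with IF and 499.7 to 698 with DC at 22 h. IF 22 h replicates 2 and 3 stood apart from the other libraries, with mitochondrial ribosomal RNA at 0.179% and 0.146% of counts against 1.82% to 4.49% elsewhere. In these libraries 114 of the 10831 tested genes stood over 2-fold under every other library, and 0 of them were inhibitory receptors. With so small a share of all genes, this 0 says little about how the 2 libraries bear on the receptors. Where a gene is called in a comparison, its Benjamini-Hochberg adjusted p-value over 10831 tested genes is under 0.05 in edgeR's quasi-likelihood test. Of the 10 receptors 9 passed the filter on low counts. Cd244, with 84 counts in all libraries together, was left out of the tests. A bulk measurement cannot tell a smaller share of cells that express a gene from less RNA per cell, and this holds for every value given here.

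Against unstimulated cells the receptors did not move as a set. Ctla4 rose in all 4 stimulated groups, Cd200 rose in 3 of them, Lag3 rose at IF 22 h, and Cd5 fell with DC at both times. At IF 8 h 2 of the 9 tested receptors were called, both higher, where 7.76% of all tested genes were called, 3.04% higher and 4.72% lower. At DC 8 h 3 were called, 2 higher and 1 lower, beside 6.82% of all tested genes (2.75% higher, 4.07% lower). At IF 22 h 3 were called, all higher, beside 6.08% (2.63% higher, 3.44% lower). At DC 22 h 2 were called, 1 in each direction, beside 7.76% (3.41% higher, 4.35% lower). The median log2 fold change of the 9 receptors was 0.84, 0.50, 1.40 and 0.04 in the same order, and that of all tested genes was 0.02, 0.04, 0.01 and 0.04. These 4 comparisons share the unstimulated libraries, so their values are given side by side only. Pdcd1, Havcr2, Tigit, Cd160 and Btla were called in none of them.

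**Figure D1:**
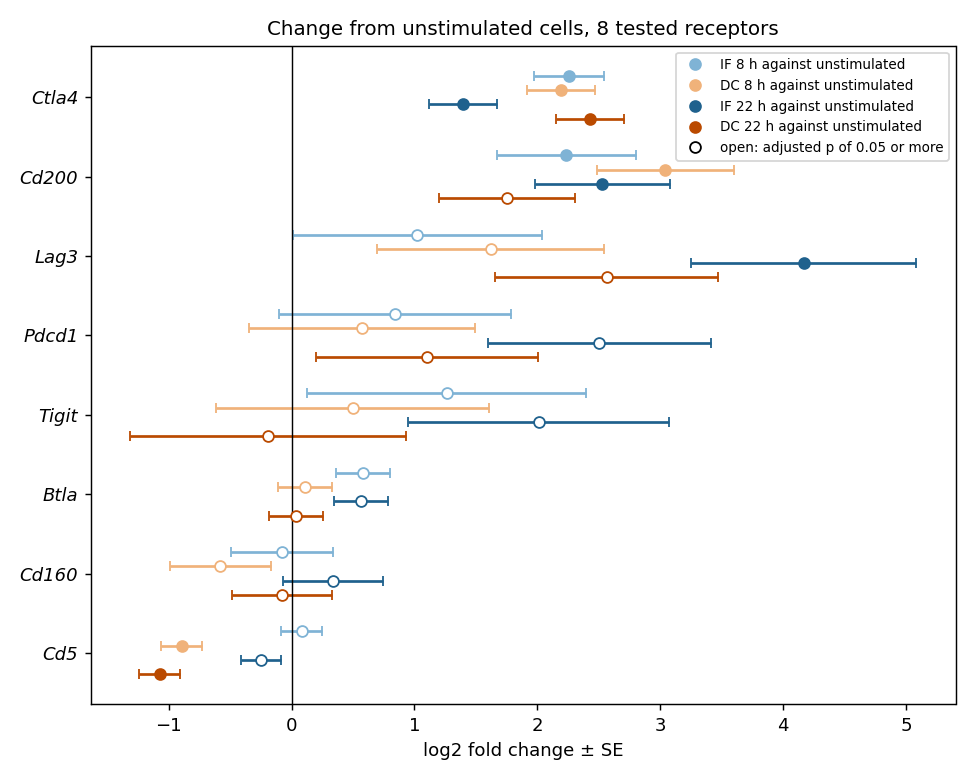
Log2 fold change against unstimulated cells (x axis, ± SE) for 8 tested receptors (y axis) in the 4 stimulated groups. Filled points have an adjusted p-value under 0.05, which holds for Ctla4 in every group, Cd200 in 3 groups, Lag3 at IF 22 h and Cd5 with DC. Havcr2 is left out because a group without counts has no defined fold.

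Ctla4 (chromosome 1, 60887000 to 60915832, plus strand, GENCODE vM21 on GRCm38) is the member of the CD28 family that removes CD80 and CD86 from CD28. It stood at 3.08, 2.89 and 4.19 CPM in unstimulated replicates 1, 2 and 3. It stood at 16.9, 16.9 and 14.5 CPM at IF 8 h and at 16.8, 16.5 and 12.8 CPM at DC 8 h. At 22 h the values were 8.32, 10.3 and 8.01 CPM with IF and 21.7, 18.7 and 13.9 CPM with DC. Every stimulated library lay above every unstimulated one, and the IF 22 h libraries lay below those of the other 3 stimulated groups. At 8 h the log2 fold change was 2.26 ± 0.28 (SE) for IF and 2.19 ± 0.28 for DC (edgeR adjusted p 0.000107 and 0.000152). At 22 h it was 1.40 ± 0.28 with IF (adjusted p 0.00616) and 2.43 ± 0.28 with DC (adjusted p 8.43e-05). The IF 22 h call was lost after thinning all libraries to the smallest (adjusted p 0.0863). With replicate 1 as the only IF 22 h library the log2 fold change was 1.31 (adjusted p 0.156). In this and every other fit with 1 IF 22 h library, that library is assumed to vary like the other groups, and a lost call says little about the size of the change.

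Regulatory T cells are another source of Ctla4 and Tigit transcripts, and their defining gene Foxp3 was checked in every group. Foxp3 had 36 counts at IF 8 h, 2 in unstimulated cells, 1 at DC 8 h and 0 in both 22 h groups. The 6 markers of CD4 and regulatory T cells summed to 0.930 to 8.67 CPM in unstimulated libraries and to 6.42 to 16.2 CPM in stimulated ones. Cd4 was at 0 in every group except IF 22 h, where 29 counts were found. Ikzf4 of the same list averaged 0.804 CPM in unstimulated cells and 4.45 to 9.02 CPM in the stimulated groups. The part of such cells in the Ctla4 and Tigit values was not tested.

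The bases before the start site of Ctla4, of Cd200 (which rose with it at 8 h), of Cd5 (which fell with DC) and of Havcr2 are shown. The first 3 genes were called against unstimulated cells, and Havcr2, called in no comparison, is the gene whose unstimulated libraries all lay above the stimulated ones. Each run holds the 250 bases before a RefSeq start site in GRCm38.p6, 5′ to 3′ on the strand of the gene, and capitals mark the searched motifs. RefSeq and GENCODE vM21 starts differ, so the Ctla4 window lies wholly, and the Cd5 window in part, inside the GENCODE span of its gene.
Ctla4, chr1:60908775-60909024, plus strand: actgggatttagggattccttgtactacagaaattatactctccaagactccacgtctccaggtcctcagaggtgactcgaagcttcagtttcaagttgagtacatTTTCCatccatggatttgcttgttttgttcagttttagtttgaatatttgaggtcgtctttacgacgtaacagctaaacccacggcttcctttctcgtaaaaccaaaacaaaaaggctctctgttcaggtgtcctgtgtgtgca
Cd200, chr16:45409054-45409303, minus strand: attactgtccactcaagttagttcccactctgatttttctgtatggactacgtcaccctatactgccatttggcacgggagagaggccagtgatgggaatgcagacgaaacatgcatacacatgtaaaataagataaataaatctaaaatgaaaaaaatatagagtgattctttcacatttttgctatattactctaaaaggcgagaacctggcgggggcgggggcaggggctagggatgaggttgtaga
Cd5, chr19:10738975-10739224, minus strand: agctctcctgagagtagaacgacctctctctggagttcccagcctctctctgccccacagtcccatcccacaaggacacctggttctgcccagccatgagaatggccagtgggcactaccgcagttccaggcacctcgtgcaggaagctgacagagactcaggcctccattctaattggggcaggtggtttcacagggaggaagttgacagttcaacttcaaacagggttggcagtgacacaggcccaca
Havcr2, chr11:46454681-46454930, plus strand: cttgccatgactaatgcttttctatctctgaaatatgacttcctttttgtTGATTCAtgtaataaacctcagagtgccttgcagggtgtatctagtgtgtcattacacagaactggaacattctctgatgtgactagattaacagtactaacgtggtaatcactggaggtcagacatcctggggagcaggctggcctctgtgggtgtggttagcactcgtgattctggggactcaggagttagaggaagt
The motifs searched on both strands were GGAAA, the core bound by NFAT, and TGANTCA, bound by AP-1. By their letters the motifs cannot share a base. Ctla4 held 1 GGAAA match, written as its reverse complement, 144 bases before the start. Havcr2 held 1 TGANTCA match 200 bases before its start, and the windows of Cd200 and Cd5 held neither motif. Among 32851 windows of this length 55.6% held GGAAA and 6.75% held TGANTCA. A window could be matched for 9 of the 10 genes, and a match or its absence is a description of these letters only.

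Pdcd1 (chromosome 1) encodes PD-1, which recruits phosphatases to the T cell receptor. It stood at 2.35, 0.542 and 0 CPM in unstimulated replicates 1, 2 and 3, the last without a count. The IF 22 h libraries had 5.59, 4.78 and 7.29 CPM and lay above all 12 other libraries. The remaining stimulated groups overlapped the unstimulated one, at 0.993 to 3.03 CPM at IF 8 h, 0.791 to 2.23 CPM at DC 8 h and 0.342 to 3.30 CPM at DC 22 h. At IF 22 h the log2 fold change was 2.50 ± 0.91, which was not called by edgeR (adjusted p 0.119). Unstimulated replicate 1 held 16 of the unstimulated counts beside 3 and 0 in the others, and without it the change was 4.26 (adjusted p 0.0537). Without a low-count filter its adjusted p-value was 0.0265, and with DESeq2 it was 0.0479.

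Lag3 (chromosome 6, 124904361 to 124911705, minus strand) encodes a protein that resembles CD4 and binds MHC class II. It stood at 1.32, 0 and 0.698 CPM in unstimulated replicates 1, 2 and 3. At 8 h it stood at 0.891, 1.66 and 1.87 CPM with IF and at 2.08, 3.10 and 1.32 CPM with DC. At 22 h it stood at 9.40, 10.7 and 18.1 CPM with IF, against 2.39, 9.72 and 0.598 CPM with DC. All IF 22 h libraries lay above all unstimulated and all 8 h libraries, while at DC 22 h replicate 2 alone was close to them. Lag3 rose at IF 22 h by 4.17 ± 0.92 on the log2 scale (edgeR adjusted p 0.0121). The size rested on few unstimulated counts: it was 5.28 without unstimulated replicate 1 (0.0241) and 4.77 after thinning all libraries to the smallest (0.0126). The call was lost without unstimulated replicate 2 (0.0509), unstimulated replicate 3 (0.0528) or IF 22 h replicate 3 (0.0542). With IF 22 h replicate 1 alone the change was 3.73 (adjusted p 0.189). At DC 22 h the change was 2.57 ± 0.91 (adjusted p 0.0985). It was 1.07 without DC 22 h replicate 2 (0.547), 3.09 without DC 22 h replicate 3 (0.0218), 3.69 without unstimulated replicate 1 (0.0995) and 3.40 after thinning (0.0703). It passed at DC 22 h with DESeq2 (0.0335), without a low-count filter (0.00449) and when libraries were scaled by size alone (0.0428).

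Havcr2 (chromosome 11, 46454935 to 46481255, plus strand) encodes TIM-3, for which galectin-9 is one of the described ligands. It had counts in every unstimulated library and few after stimulation. Unstimulated libraries had 23, 25 and 18 counts, or 3.37, 4.52 and 4.19 CPM, and all 12 stimulated libraries lay below them. No count was found in any IF 8 h library, which allows up to 0.535 to 0.993 CPM per library at 3 counts. Counts were 11, 3 and 0 at DC 8 h, 0, 0 and 14 at IF 22 h, and 0, 5 and 0 at DC 22 h. Against the floor of 3 counts per library the IF 8 h level was at least 5.18-fold lower than the unstimulated one. The difference was not called by edgeR in any group, with adjusted p-values of 0.0571 (IF) and 0.242 (DC) after 8 h and 0.142 (IF) and 0.0983 (DC) after 22 h. At IF 8 h it passed with DESeq2 (0.0163), without a low-count filter (0.00536), with only the groups compared (0.00330) and without DC 22 h replicate 2 (0.0409). With only the groups compared it also passed at IF 22 h (0.0486) and DC 22 h (0.0445), and without a low-count filter at DC 22 h (0.0329).

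Dendritic cells also express Havcr2, and the markers of that lineage moved in both directions. Xcr1, the chemokine receptor of cross-presenting dendritic cells, averaged 24.1 CPM in unstimulated libraries, from 9.53 to 45.6, and 0.198 to 3.54 CPM in the means of the 4 stimulated groups. Other dendritic cell markers had higher means at DC 8 h than in unstimulated cells, among them Fscn1 (142 against 2.31 CPM), Cd83 (40.2 against 4.48 CPM), Ccl22 (14.3 against 0.0489 CPM) and Flt3 (4.23 against 1.198 CPM). Zbtb46 was at 0 in unstimulated cells and at IF 8 h and averaged 1.77 CPM at DC 8 h. The 5 monocyte and macrophage markers in the files summed to 8.84 to 14.99 CPM in unstimulated libraries and to 3.09 to 19.7 CPM in stimulated ones, and Cd14 and Lyz2 were at 0 in unstimulated cells. The part of these cells in the Havcr2 difference was not tested.

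Tigit (chromosome 16) encodes a receptor that competes with CD226 for the poliovirus receptor. It had 90 counts in all libraries together, and unstimulated libraries stood at 0.233 to 0.440 CPM. The IF 22 h libraries stood at 1.19, 1.79 and 1.43 CPM, above all unstimulated and all DC 22 h libraries, the latter at 0.114, 0.552 and 0.256 CPM. The level at IF 8 h rested on replicate 3 with 2.14 CPM, beside 0.178 and 0.331 CPM. Tigit was called in no comparison.

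Cd160 (chromosome 3) and Btla (chromosome 16) encode the receptors that bind HVEM. Both had counts in all 15 libraries. Cd160 stood at 37.4 to 65.9 CPM in unstimulated libraries, 47.1 to 61.7 at IF 8 h and 58.5 to 79.9 at IF 22 h. With DC it varied more, at 26.0, 70.0 and 17.2 CPM in replicates 1, 2 and 3 at 8 h and 58.1, 73.6 and 29.0 CPM at 22 h. Replicate 2 was the highest and replicate 3 the lowest at both times. At DC 8 h Cd160 changed by −0.58 ± 0.41 on the log2 scale (edgeR adjusted p 0.460), and without DC 8 h replicate 2 the change was −1.38 (adjusted p 0.0390). NK cells also express Cd160. The 5 NK cell markers in the files summed to 84.4 to 85.6 CPM in unstimulated libraries and to 100.1 to 223 CPM at DC 8 h. Most of either sum was Eomes, which T cells also express (69.3 and 151 CPM), while Klrb1c averaged 6.23 and 5.14 CPM, Klre1 7.47 and 4.42 CPM and Ncr1 1.87 and 0 CPM, and Klra8 was at 0. Their part in the Cd160 values was not tested. Cd160 shares 68 exonic bases with Pdzk1 on the opposite strand in GENCODE vM21, and the use of strand in counting is not given in the sources used here.

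Btla stood at 52.2, 48.6 and 52.6 CPM in unstimulated replicates 1, 2 and 3. With IF it stood at 65.1, 69.2 and 95.0 CPM at 8 h and at 77.7, 65.2 and 84.0 CPM at 22 h, above every unstimulated library. With DC it ranged from 43.3 to 72.9 CPM at 8 h and from 44.1 to 63.9 CPM at 22 h, on both sides of the unstimulated level. The log2 fold change with IF was 0.58 ± 0.22 at 8 h and 0.57 ± 0.22 at 22 h, not called by edgeR (adjusted p 0.123 and 0.143). With libraries scaled by size alone the adjusted p-values were 0.0309 and 0.0446, and they were 0.0475 and 0.0435 in fits of only the groups compared. That scaling moved the median change over all tested genes to 0.26 and 0.22 on the log2 scale.

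Cd200 (chromosome 16, 45382135 to 45409053, minus strand) stood at 1.47, 2.35 and 1.63 CPM in unstimulated replicates 1, 2 and 3. It stood at 12.7, 2.65 and 9.90 CPM at IF 8 h and at 11.1, 25.2 and 8.80 CPM at DC 8 h. The 22 h libraries had 7.02, 13.0 and 11.5 CPM with IF and 6.14, 8.29 and 4.10 CPM with DC. All 12 stimulated libraries lay above all unstimulated ones, IF 8 h replicate 2 by a small margin. On the log2 scale Cd200 rose by 2.24 ± 0.56 (IF) and 3.04 ± 0.56 (DC) after 8 h and by 2.53 ± 0.55 after 22 h of IF (edgeR adjusted p 0.0227, 0.00301 and 0.0113). Without DC 8 h replicate 2 the rise at DC 8 h was 2.45 (0.0174). At DC 22 h the change was 1.76 ± 0.55 (adjusted p 0.0629). It passed there with DESeq2 (0.0234), without a low-count filter (0.00683), with library size alone (0.0197), and without IF 8 h replicate 2 (0.0327), DC 8 h replicate 2 (0.0416) or DC 22 h replicate 3 (0.0437).

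The call for Cd200 at IF 8 h was lost without IF 8 h replicate 1 (adjusted p 0.112) or 3 (0.0688) and without unstimulated replicate 1 (0.0897), 2 (0.0552) or 3 (0.0793). At IF 22 h it was lost without unstimulated replicate 1 (0.0608) or 3 (0.0528) and with IF 22 h replicate 1 alone, where the change was 1.95 (0.304). Dendritic cells and B cells also express CD200. The dendritic cell marker sums given above lay below the unstimulated range at IF 8 h and within it at DC 8 h. At DC 8 h Fscn1, Cd83 and Ccl22 had higher means than in unstimulated cells. Others of the list had lower means there, among them Xcr1 (2.86 against 24.1 CPM), Itgax (5.32 against 14.5), H2-Ab1 (106 against 228) and Cst3 (145 against 221). The 7 B cell markers in the tables summed to 28.3 to 30.7 CPM in unstimulated libraries, 10.3 to 44.0 with IF and 6.95 to 19.1 with DC at 8 h, and 30.1 to 49.1 with IF and 6.52 to 22.5 with DC at 22 h. The part of these cells in the Cd200 values was not tested.

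Cd244 (chromosome 1), listed as Cd244a in GENCODE vM21, encodes 2B4 of the SLAM family, a receptor that can activate or inhibit. It had 0 to 23 counts per library and none in 3 libraries. Its group means lay between 0.178 CPM at IF 8 h and 0.924 CPM at DC 22 h, and every pair of neighbouring groups overlapped.

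**Figure D2:**
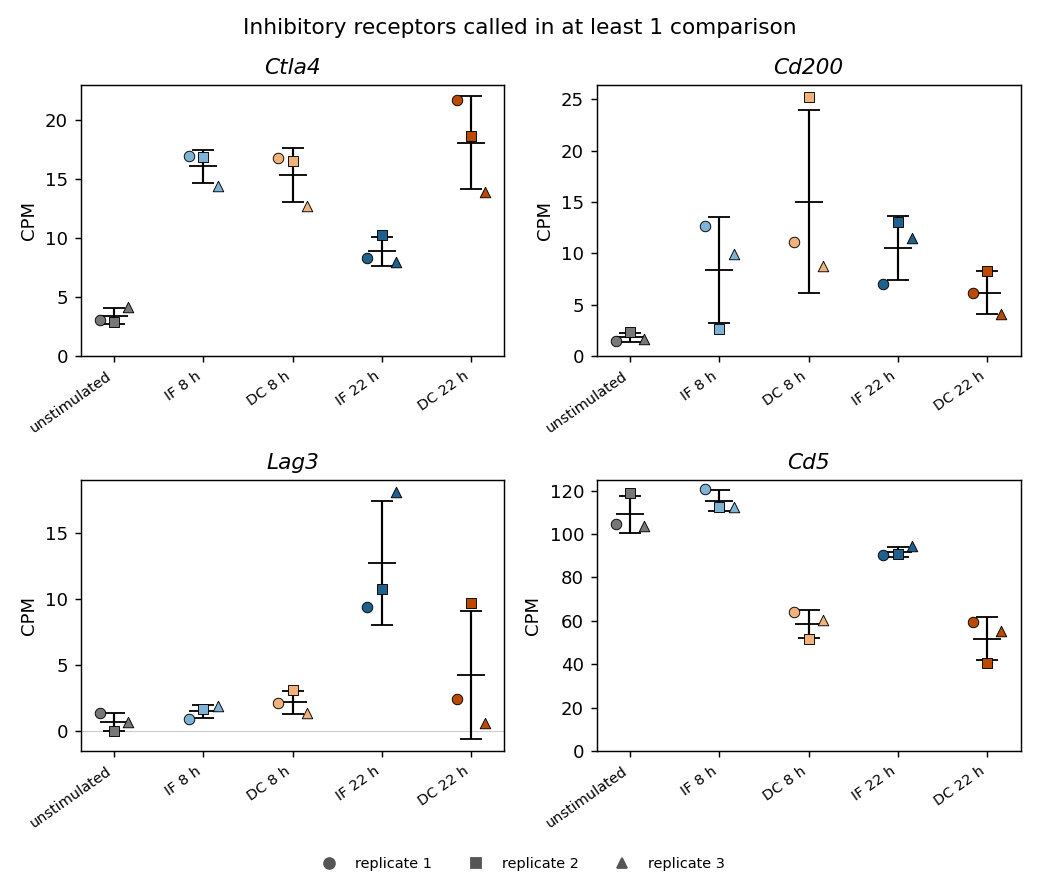
Expression in CPM (y axis) of Ctla4, Cd200, Lag3 and Cd5 in the 5 groups (x axis), 1 point per library, with bars for the mean ± SD of 3 libraries. Stimulated libraries lie above unstimulated ones for Ctla4 and Cd200, IF 22 h stands highest for Lag3, and both DC groups stand lowest for Cd5.

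Cd5 (chromosome 19, 10717116 to 10739002, minus strand) separated the stimuli. It stood at 105, 119 and 103 CPM in unstimulated replicates 1, 2 and 3. With IF it stood at 121, 113 and 112 CPM at 8 h and at 90.1, 90.7 and 94.4 CPM at 22 h. With DC it stood at 63.9, 51.5 and 60.6 CPM at 8 h and at 59.6, 40.4 and 55.4 CPM at 22 h. The DC libraries lay below all 9 others, and the IF 8 h libraries overlapped the unstimulated ones. Cd5 fell by 0.89 ± 0.17 on the log2 scale at DC 8 h and fell by 1.07 ± 0.17 at DC 22 h (edgeR adjusted p 0.00334 and 0.000943). With IF it changed by 0.08 ± 0.16 at 8 h and −0.25 ± 0.16 at 22 h (adjusted p 0.819 and 0.425). The 10 CD8 T cell markers were also lower after stimulation, from a sum of 9551 to 10433 CPM in unstimulated libraries to 5491 to 5629 with IF and 4467 to 5521 with DC at 8 h, and 6192 to 7208 with IF and 4980 to 6273 with DC at 22 h. Their part in the Cd5 difference was not tested.

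**Figure D3:**
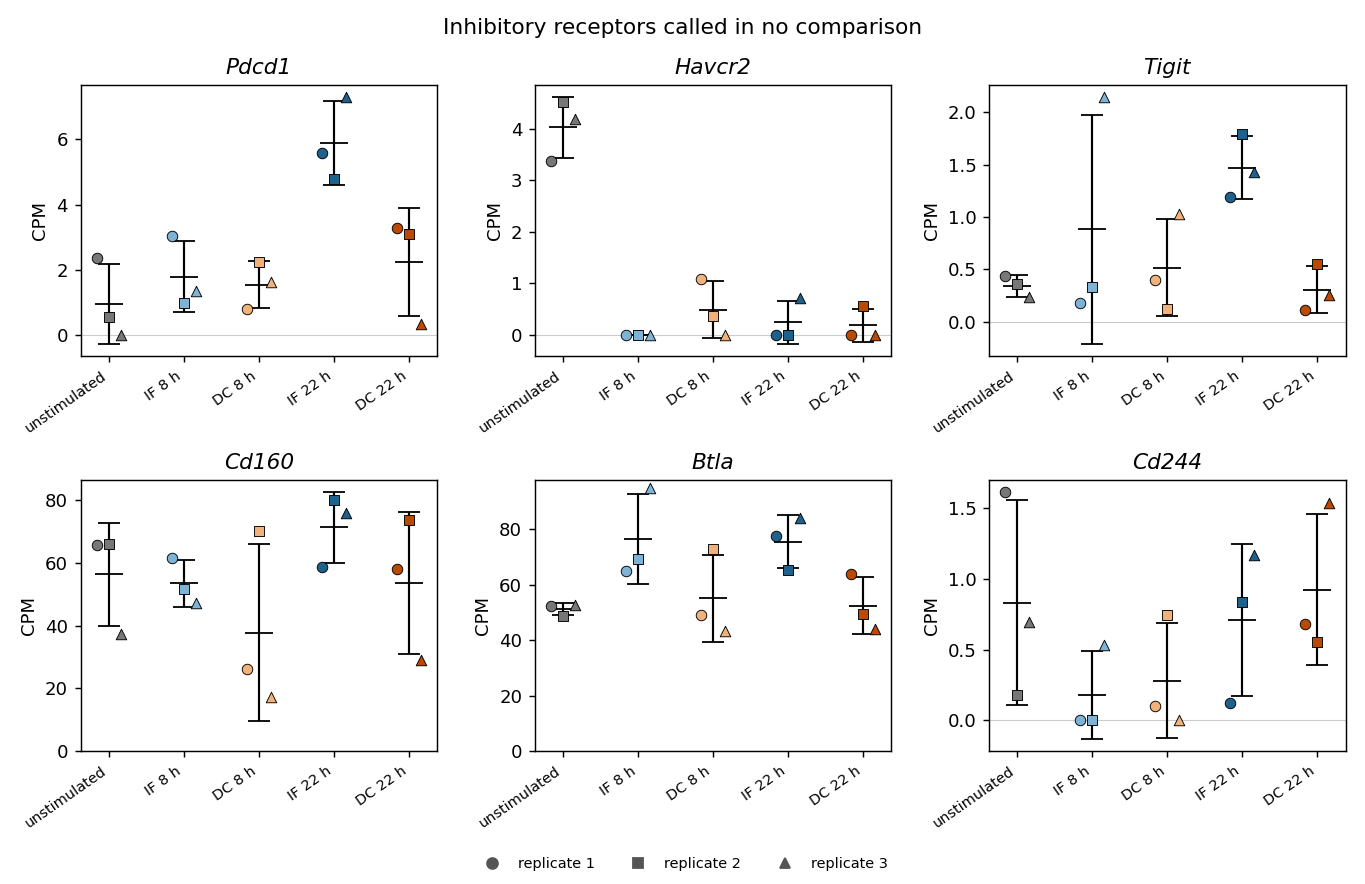
Expression in CPM (y axis) of the 6 receptors called in no comparison, in the 5 groups (x axis), 1 point per library with bars for the mean ± SD of 3 libraries. Havcr2 is highest in unstimulated libraries, Pdcd1 and Tigit are highest in mean at IF 22 h, and Cd160 and Btla overlap between most groups.

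Whether the stimulus mattered was tested by setting IF against DC at each time. At 8 h 1 of the 9 tested receptors was called, Cd5, where 0.665% of all tested genes were called, 0.231% higher and 0.434% lower with IF. At 22 h 2 were called, Cd5 and Ctla4 in opposite directions, beside 2.43% of all tested genes (1.23% higher, 1.2% lower). Cd5 was higher with IF by 0.97 ± 0.17 on the log2 scale at 8 h (edgeR adjusted p 0.00914) and by 0.82 ± 0.16 at 22 h (adjusted p 0.0127), and the groups did not overlap at either time. At 8 h its adjusted p-value was 0.0544 without DC 8 h replicate 2. At 22 h it was 0.0539 or 0.0633 when IF 22 h replicate 2 or 3 was left out and 0.145 with only the groups compared. With IF 22 h replicate 1 alone the difference was 0.80 (adjusted p 0.398).

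Ctla4 overlapped between the stimuli at 8 h, with a difference of 0.07 ± 0.25 on the log2 scale (edgeR adjusted p 0.989). At 22 h it was lower with IF by −1.03 ± 0.25 (adjusted p 0.0369), and the groups did not overlap. This call did not hold in 6 of the 15 fits without 1 library. The adjusted p-value was 0.0525, 0.0931 and 0.189 when IF 22 h replicate 1, 2 or 3 was left out, 0.168 and 0.0721 when DC 22 h replicate 1 or 2 was, and 0.0562 when DC 8 h replicate 1 was. It was 0.0513 with the replicate number as a block, 0.0758 without a low-count filter, 0.133 with only the groups compared, and 0.665 with IF 22 h replicate 1 alone, where the difference was −1.12.

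At 22 h the 7 remaining tested receptors had higher means with IF than with DC without being called. Cd160 averaged 71.4 against 53.6 CPM and Havcr2 0.238 against 0.184 CPM, the latter near the floor of 3 counts. The IF − DC difference was 1.60 ± 0.75 for Lag3, 1.40 ± 0.83 for Pdcd1, 2.20 ± 1.02 for Tigit, 0.53 ± 0.22 for Btla and 0.77 ± 0.48 for Cd200, with edgeR adjusted p-values of 0.322, 0.461, 0.311, 0.236 and 0.493. For Pdcd1, Tigit and Btla all IF 22 h libraries lay above all DC 22 h libraries. The shares of all tested genes with a higher mean or a full separation were not counted. No shift of the receptors as a set is therefore read from these values. Lag3 overlapped through DC 22 h replicate 2, without which its difference was 3.11 (adjusted p 0.0484) and that of Tigit 2.85 (adjusted p 0.318).

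**Figure D4:**
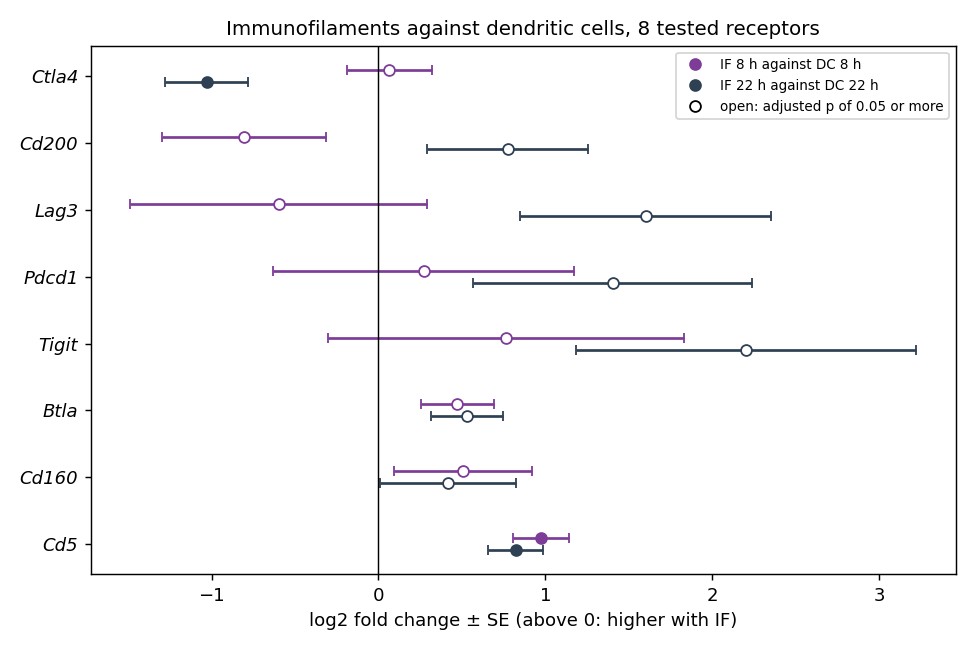
Log2 fold change of IF against DC (x axis, ± SE, above 0 is higher with IF) at 8 h and 22 h for 8 tested receptors (y axis). Filled points have an adjusted p-value under 0.05, which holds for Cd5 at both times and for Ctla4 at 22 h, where it is below 0.

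Change over time was measured within each stimulus. From 8 h to 22 h with IF 0 receptors were called by edgeR, beside 1.12% of all tested genes (0.637% higher, 0.48% lower). At an unadjusted p-value under 0.05, where 1622 of the 10831 tested genes stood, there were 2 of the 9 tested receptors. These were Lag3, with 3.15 ± 0.87 on the log2 scale (adjusted p 0.103), and Ctla4, with −0.86 ± 0.26 (adjusted p 0.1245). Both passed with DESeq2, at 0.0138 and 0.0449. Lag3 also passed without a low-count filter (0.000329), with only the groups compared (0.0169), and without DC 22 h replicates 2 (0.0308) or 3 (0.0422). The IF 22 h libraries of both genes did not overlap those of IF 8 h. With DC 0 receptors were called by edgeR, beside 0.48% of all tested genes (0.379% higher, 0.102% lower), and 0 passed with DESeq2. At an unadjusted p-value under 0.05, where 978 of the 10831 tested genes stood, there was 1 receptor. This was Cd200, with −1.29 ± 0.48 (adjusted p 0.366). Same-numbered DC libraries deviated together. At 22 h Cd200 and Cd5 were lower, and Ctla4 and Cd160 higher, in 3 of 3 numbered pairs. For Cd200 the change was −0.69 without DC 8 h replicate 2 (adjusted p 0.723). With the number as a block in the DC groups alone the change was −1.20 ± 0.28 (adjusted p 0.0711).

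The change of the IF − DC difference from 8 h to 22 h was tested as an interaction, for which 0 receptors and 0% of all tested genes were called by edgeR. At an unadjusted p-value under 0.05 there were 2 of the 9 tested receptors, beside 858 of the 10831 tested genes. The receptors were Ctla4 with −1.10 ± 0.35 (adjusted p 0.466) and Cd200 with 1.58 ± 0.69 (adjusted p 0.594). Without DC 8 h replicate 2 the value for Cd200 was 0.99 (adjusted p 0.653). With DESeq2 0 receptors passed. The difference of Ctla4 at 22 h was therefore not shown to differ from that at 8 h.

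The order of the groups differed from gene to gene. For Ctla4 it ran DC 22 h, IF 8 h and DC 8 h, which overlapped, then IF 22 h, then unstimulated cells, with no overlap at the last 2 steps. For Cd5 it ran IF 8 h and unstimulated cells, which overlapped, then IF 22 h, then DC 8 h and DC 22 h, which overlapped. For Cd200 only the step from DC 22 h, the lowest stimulated group, to unstimulated cells was without overlap. For Pdcd1 only the step from IF 22 h to DC 22 h was, and for Havcr2 only that from unstimulated cells to DC 8 h. In Lag3, Tigit, Cd160, Btla and Cd244 every pair of neighbouring groups overlapped.

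Several of the genes lie beside relatives, and the neighbours described next were chosen after their values were seen. Cd28, Ctla4 and Icos follow each other on chromosome 1 with 114 kb and 62.1 kb between them and no other protein-coding gene. Cd28, the costimulatory rival of CTLA-4, was higher with IF than with DC by 1.44 ± 0.19 at 8 h and 2.38 ± 0.20 at 22 h (edgeR adjusted p 0.00123 and 1.40e-05). Against unstimulated cells it rose by 0.93 ± 0.19 at IF 8 h and 1.52 ± 0.19 at IF 22 h, changed by −0.51 ± 0.19 at DC 8 h (adjusted p 0.127), and fell by 0.86 ± 0.19 at DC 22 h. At 22 h Cd28 and Ctla4 thus differed between the stimuli in opposite directions. Icos rose at IF 8 h by 1.10 ± 0.20 (adjusted p 0.00341) and was called in none of the other comparisons. Of the 11 tested activating receptors that share a ligand or family with the inhibitory ones, Cd28 and Icos included, 3 were called between IF and DC at 8 h (2 higher with IF), beside 0.665% of all tested genes. At 22 h 3 were called (all higher), beside 2.43%. Btla and Cd200 are neighbours on chromosome 16 with 124 kb between them, and Cd200 rose in 3 groups in which Btla was not called.

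Cd6, the paralogue of Cd5 that lies 50.3 kb from it on chromosome 19, had the pattern most like that of Cd5 among all tested genes. Its centred log2 CPM differed from that of Cd5 by a root-mean-square of 0.17 over the 15 libraries, where Cd5 itself varied by 0.49 about its mean. Spn and Sla came next, at 0.19 and 0.21. Cd6 fell by 0.76 ± 0.15 at DC 8 h and fell by 0.92 ± 0.15 at DC 22 h (edgeR adjusted p 0.00570 and 0.00137), and changed by −0.07 ± 0.15 and −0.29 ± 0.15 at IF 8 h and IF 22 h (adjusted p 0.832 and 0.3004). Most like Ctla4, which varied by 0.89, were Irgm2, Nfat5 and Brms1l at 0.36, 0.42 and 0.44. Most like Btla were Kpna1, Atf6 and Abhd13 at 0.22, 0.22 and 0.23, and most like Cd160 were Smco4, Ppil3 and Pcid2 at 0.33, 0.39 and 0.39. Btla varied by 0.34 and Cd160 by 0.62.

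Ligands of the receptors were followed in the same cells. Of 14 ligand genes with counts listed, 8 passed the filter and were tested, and against unstimulated cells 3 were called at 8 h of IF (1 higher, 2 lower), where 7.76% of all tested genes were called. At IF 22 h 2 were called, 1 in each direction (6.08% of all tested genes), and with DC 2 were called at each time, all lower (6.82% and 7.76%). Pdcd1lg2, the gene of the PD-1 ligand PD-L2, rose with IF, from 3.70 ± 1.88 CPM (SD, n = 3) to 16.998 ± 5.58 at 8 h and 30.4 ± 8.58 at 22 h. Its log2 fold changes were 2.19 ± 0.60 and 3.02 ± 0.60 (edgeR adjusted p 0.0367 and 0.00623). With DC Pdcd1lg2 averaged 13.7 ± 4.35 CPM at 8 h and 13.7 ± 11.7 CPM at 22 h and was not called. The DC 8 h libraries, from 9.20 to 17.9 CPM, lay above the unstimulated ones and overlapped those of IF 8 h. Lgals9, which encodes galectin-9, fell in all 4 groups, from 509 ± 64.4 CPM to 195 ± 3.10, 272 ± 14.3, 258 ± 4.94 and 247 ± 14.2 CPM (8 h IF, 8 h DC, 22 h IF, 22 h DC). Cd48, the ligand of 2B4, fell at IF 8 h, DC 8 h and DC 22 h by 0.98 ± 0.18, 0.83 ± 0.18 and 0.69 ± 0.18 (adjusted p 0.00345, 0.00862 and 0.0242). The median log2 fold change of the 8 ligands was −0.01, 0.23, −0.24 and 0.25 in the same order. Between IF and DC 0 ligands were called by edgeR at either time, beside 0.665% and 2.43% of all tested genes. At an unadjusted p-value under 0.05 there was 1 ligand at 8 h and 3 at 22 h, beside 896 and 1656 of the 10831 tested genes. DESeq2 called 1 ligand at each time, and its share over all genes is not given here.

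Among 22 tested genes of inhibitory signalling and receptor traffic 5 were called at IF 8 h (2 higher), 5 at DC 8 h (1 higher), 3 at IF 22 h (2 higher) and 7 at DC 22 h (2 higher), where 7.76%, 6.82%, 6.08% and 7.76% of all tested genes were called. Cblb, a ubiquitin ligase that restrains T cell activation, rose in all 4 groups, from 37.4 ± 2.88 CPM (SD, n = 3) to 122 ± 14.7, 84.3 ± 10.9, 121 ± 16.1 and 66.5 ± 15.4 CPM in that order. Ptpn22, a phosphatase of proximal T cell receptor signalling, rose with IF by 0.72 ± 0.15 at 8 h and 0.93 ± 0.15 at 22 h (edgeR adjusted p 0.00730 and 0.00105). Inpp5d, the gene of the lipid phosphatase SHIP-1, fell by 1.30 ± 0.21 at DC 8 h and fell by 1.00 ± 0.20 at DC 22 h (adjusted p 0.00111 and 0.00588). Between IF and DC 0 of the 22 genes were called by edgeR at 8 h (0.665% of all tested genes), and 2 by DESeq2. At an unadjusted p-value under 0.05 there were 8 of the 22 genes at 8 h, beside 896 of the 10831 tested genes. At 22 h 7 were called (2.43%), 6 of them higher with IF. The median log2 difference at 22 h was 0.22 against −0.02 over all tested genes. Of the 7 called genes Cblb was higher by 0.87 ± 0.19 (adjusted p 0.0214) and Ptpn22 by 0.90 ± 0.15 (adjusted p 0.00315).

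Of 16 other tested inhibitory receptors 3 were called at IF 8 h (2 higher), 5 at DC 8 h (1 higher), 2 at IF 22 h (both higher) and 3 at DC 22 h (1 higher). The shares of all tested genes were 7.76%, 6.82%, 6.08% and 7.76%. Lilrb4, which encodes a receptor with inhibitory tyrosine motifs, rose in all 4 groups, from 1.91 ± 1.05 CPM (SD, n = 3) to 13.9 ± 3.43, 13.3 ± 3.25, 6.44 ± 1.78 and 7.88 ± 2.62 CPM in the order above. Adora2a, the gene of an adenosine receptor, rose with IF by 1.06 ± 0.30 at 8 h and 1.66 ± 0.29 at 22 h (edgeR adjusted p 0.0413 and 0.00270), and at 22 h it was higher with IF than with DC by 1.11 ± 0.28 (adjusted p 0.0455). Klrg1 fell by 1.28 ± 0.34 at DC 22 h (adjusted p 0.0289). It averaged 14.6 CPM in unstimulated cells, 5.39 CPM at DC 8 h and 5.96 CPM at DC 22 h, so it was already low at DC 8 h. Between IF and DC 1 of the 16 was called at 8 h (0.665% of all tested genes) and 2 at 22 h (2.43%), all higher with IF, and Cd6 was among them at both times.

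Of 16 tested transcription factors linked to inhibitory receptor expression 6 were called at IF 8 h (5 higher), 7 at DC 8 h (4 higher), 4 at IF 22 h (3 higher) and 4 at DC 22 h (2 higher). Beside these counts stand 7.76%, 6.82%, 6.08% and 7.76% of all tested genes. Eomes, a T-box factor of effector and memory cells, rose with IF, from 69.3 ± 3.82 CPM (SD, n = 3) to 264 ± 62.7 at 8 h and 275 ± 30.4 at 22 h, and at 22 h it was higher with IF than with DC by 2.04 ± 0.33 (edgeR adjusted p 0.00249). With DC Eomes averaged 151 ± 62.2 CPM at 8 h, where its lowest library (89.5 CPM) lay above the highest unstimulated one (73.5 CPM). At DC 22 h it averaged 67.1 ± 34.5 CPM. NK cells express Eomes as well. Of the other NK cell markers Klrb1c averaged 6.23 CPM in unstimulated cells, 6.62 at IF 8 h and 12.5 at IF 22 h, Klre1 averaged 7.47, 7.16 and 10.2 CPM, Ncr1 averaged 1.87, 0 and 0.0680 CPM, and Klra8 was at 0 in every group. Their part in the Eomes difference was not tested. Ikzf2 rose with DC by 1.32 ± 0.29 at 8 h and 1.47 ± 0.29 at 22 h (adjusted p 0.00977 and 0.00460). It was not higher with DC alone. At IF 8 h the Ikzf2 libraries, from 50.8 to 61.6 CPM, lay above the highest unstimulated one (28.7 CPM). They overlapped those of DC 8 h, from 43.3 to 97.3 CPM. At IF 22 h, from 26.1 to 46.7 CPM, Ikzf2 overlapped the unstimulated libraries. Bach2 rose at IF 8 h by 1.68 ± 0.25, at DC 8 h by 1.32 ± 0.24 and at DC 22 h by 1.11 ± 0.24 (adjusted p 0.000482, 0.00315 and 0.00890). Between IF and DC 1 factor was called at 8 h (0.665% of all tested genes), Batf, lower with IF by −0.96 ± 0.21 (adjusted p 0.0425). At 22 h 3 were called (2.43%), all higher with IF.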

How the data were processed

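Per the labels' protocols, sorted cells were lysed in TRIzol and libraries made by an adapted CEL-seq protocol (barcoded oligo-dT priming, pooling, in vitro transcription) and sequenced on a NextSeq 500. The deposited values are raw whole-number counts for each gene. BWA and mm10 are named in the submitters' processing notes; the annotation, strandedness and any collapsing of molecular identifiers are not given in the sources used here, so floors of 3 counts cover counting error only. Counts were tested in R 4.3.3 with edgeR 4.0.16 (limma 3.58.1): filterByExpr (minimum count 10, minimum total 15), TMM scaling, 1 quasi-likelihood fit with 5 group means over all 15 libraries, two-sided, Benjamini-Hochberg adjusted within each of 9 comparisons. SE is the absolute log2 fold change over the square root of F, and fold changes use a prior count of 0.125. CPM values are TMM-scaled. The test was checked on simulated data. Of the titles' replicate numbers, same-numbered libraries correlated in their deviations by −0.189 to 0.399, with all 3 pairs above 0.1 only between DC 8 h and DC 22 h (0.116, 0.399 and 0.238), where a fit of the DC groups alone called 0 genes without the block (776 at an unadjusted p-value under 0.05) and 166 with it (52 in the fit over all libraries), and a receptor in none of them. Receptors and gene lists were chosen with earlier results of these data known. Every receptor is named; from each other list at most the 3 called genes with the smallest p-value per comparison, and as most alike the 3 genes nearest to each receptor of at least 10 mean CPM. Alternatives were DESeq2 1.42.0, other scalings and filters, only the groups compared, a replicate block, thinning and leaving out libraries. Sequences are from RefSeq (GRCm38.p6).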

Additional observations from a re-analysis of the deposited data

Results flagged for a closer look

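The change under IF and the change under DC, both measured from the same unstimulated cells, differed by their direct test for Cd5 at 8 h (IF against DC, log2 fold change 0.97) and at 22 h (0.82). For Ctla4 they differed at 22 h (−1.03). In each case all 3 IF libraries lay on the same side of all 3 DC libraries.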

How the results depend on the processing

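Limits: the counts of receptors called are small, so 1 gene near the threshold moves them, and Havcr2, Tigit, Pdcd1 and Cd244 rest on few counts. For the 13 called values of single receptors, 271 of 300 alternative fits kept the call, 29 lost it and 0 reversed direction. For 18 values not called, 378 of 409 stayed uncalled, 31 passed and 0 reversed. The number of receptors called at IF 8 h (2) was 1 at a mean of at least 10 CPM and 4 with only the groups compared. At IF 22 h (3) it was 1 and 5 under the same settings and 0 with IF 22 h replicate 1 alone, a fit whose lone library is assumed to vary like the other groups. At DC 22 h (2) it was 4 with library size alone, 5 without a low-count filter and 4 with DESeq2. For IF against DC at 22 h (2) it was 1 without a low-count filter, 1 with the replicate block, 0 with only the groups compared and 0 with IF 22 h replicate 1 alone. From IF 8 h to IF 22 h (0) it was 1 without a low-count filter, 2 with DESeq2 and 1 with only the groups compared. Fits without 1 library gave 1 to 3 at IF 8 h, 3 to 4 at DC 8 h, 1 to 3 at IF 22 h, 2 to 4 at DC 22 h, 0 to 1 and 0 to 2 for IF against DC at 8 h and 22 h, 0 to 1 from IF 8 h to IF 22 h, and 0 to 0 from DC 8 h to DC 22 h and for the interaction. The titles give the same replicate numbers in every group, and same-numbered libraries deviated together in all 3 pairs only between DC 8 h and DC 22 h. Low correlations in groups of 3 libraries cannot show that the other groups are unpaired. Under the replicate block over all 15 libraries, Ctla4 for IF against DC at 22 h had an edgeR adjusted p-value of 0.0513 and no other receptor's call changed. The block within DC alone was chosen after seeing the data.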

Other observations

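In the DC groups replicate 2 stood at an end of the range at both times for several receptors. At DC 8 h it was the highest of 3 libraries for Cd160 (70.0 CPM), Cd200 (25.2 CPM) and Lag3 (3.10 CPM) and the lowest for Cd5 (51.5 CPM). At DC 22 h it was again the highest for Cd160 (73.6 CPM), Cd200 (8.29 CPM) and Lag3 (9.72 CPM) and the lowest for Cd5 (40.4 CPM). Foxp3, at 36 counts in the IF 8 h group, had a highest value of 8.61 CPM in 1 library and a lowest of 0 CPM in another.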
